A study of Ambystoma mexicanum with 8 samples.

Results

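Connective tissue growth factor (ctgf, also called CCN2) and thrombospondin 4 (thbs4) are described here in axolotl limb stumps that had failed to regenerate after repeated amputation. They are 2 of the 91843 transcripts in the deposited tables, and both were among the 32757 transcripts with enough counts to be tested. They were chosen by name from the study's own list of transcripts that differed between the groups, so their difference between the groups is given as a description, with no test. The ctgf transcript is contig TR1012|c0_g1_i1 and the thbs4 transcript is contig TR25133|c0_g1_i1 of a de novo assembly, so neither has a genome position. The names rest on the closest protein match, and the assembled component of each held 0 other contigs.

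RNA was sequenced from the local limb tissue of leucistic wild-type axolotls at 3 days post-amputation (dpa), during wound healing. The 4 repeatedly amputated limbs (libraries MR2, MR5, MR6 and MR14) were stumps that had failed to regenerate by the end of 5 amputation rounds. They were then cut a 6th time, slightly proximal to the old plane. The 4 control limbs (Control1, Control3, Control4 and Control6) came from siblings with no earlier injury and were cut once at the same anatomical level. Each library was made from a separate animal, and the column names give a library's group but not which animal it was. The repeatedly amputated limbs were stumps selected for failure, so the number of amputations and the failure to regenerate cannot be told apart. Library totals were 15596527 to 17980271 counts in repeatedly amputated limbs and 16765785 to 18437103 counts in control limbs.

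Both genes encode matricellular proteins, which are secreted into the extracellular matrix and act mainly as signals and organisers of cell and matrix contacts rather than as structural fibres. CTGF belongs to the CCN family. In mammals it is induced by TGF-beta and by YAP and TEAD transcription factors, is made by fibroblasts and chondrocytes among other cells, and is widely used as a marker of fibrosis. Thrombospondin 4 belongs to the pentameric thrombospondins together with COMP, and in mammals it is known from tendon, from the attachment of muscle to tendon, from heart and from injured muscle and nerve. The samples were whole pieces of stump, so more cells that make a transcript and more of that transcript per cell cannot be told apart.

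Ctgf was higher in repeatedly amputated limbs, and the groups did not overlap. Its expected counts (RSEM's estimate of the fragments from a transcript) were 1319 in MR2, 3534 in MR5, 1070 in MR6 and 1291 in MR14, against 555 in Control1, 549 in Control3, 442 in Control4 and 246 in Control6. Scaled to 1000000 counts of a TMM-adjusted library (CPM), these were 79.4, 222, 63.3 and 82.7 in repeatedly amputated limbs, against 29.3, 28.8, 25.3 and 14.5 in control limbs. MR5 stood far above the other 3 repeatedly amputated limbs, and Control6 was the lowest of the control limbs. The means were 112 ± 74.1 CPM in repeatedly amputated limbs and 24.5 ± 6.91 CPM in control limbs (SD, n = 4 each), a ratio of 4.57, and the fitted log2 fold change was 2.19 (SE 0.451). MR5 alone held 49.7% of the ctgf CPM of its group, and without MR5 the log2 fold change was 1.62. Among all transcripts tested, 3.29% had every repeatedly amputated limb above every control limb and 3.08% had every one below, and nothing is read from this share for ctgf, since this contrast chose it.

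Thbs4 was the less abundant transcript, and its groups overlapped. Its expected counts were 95 in MR2, 174 in MR5, 44 in MR6 and 233 in MR14, against 39 in Control1, 20 in Control3, 53 in Control4 and 10 in Control6. These corresponded to 5.72, 10.9, 2.60 and 14.9 CPM in repeatedly amputated limbs, against 2.06, 1.05, 3.03 and 0.589 CPM in control limbs. MR6 lay below Control4, and the other 3 repeatedly amputated limbs lay above every control limb. The counting intervals of MR6 (1.89 to 3.49 CPM) and Control4 (2.27 to 3.96 CPM) overlapped (95% Clopper-Pearson intervals, which cover counting error only), so at this depth the order of these 2 libraries was not resolved. The means were 8.55 ± 5.47 CPM in repeatedly amputated limbs and 1.68 ± 1.09 CPM in control limbs (SD, n = 4 each), a ratio of 5.08, with a fitted log2 fold change of 2.34 (SE 0.659). On the log2(FPKM + 1) scale, which compresses low values, the thbs4 difference was 1.19.

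**Figure D1:**
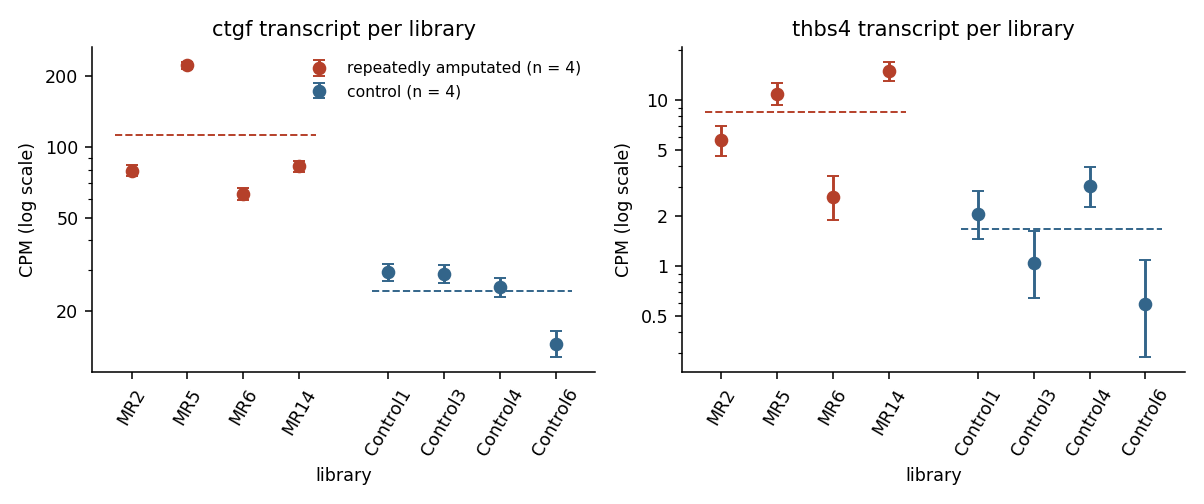
Expression of ctgf (left) and thbs4 (right) in each library, as CPM on a log axis. Points are single libraries with 95% Clopper-Pearson counting intervals and dashed lines are group means (n = 4 each). Every repeatedly amputated limb lies above every control limb for ctgf, while MR6 (2.60 CPM) lies below Control4 (3.03 CPM) for thbs4.

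MR5 was first for ctgf and 2nd for thbs4, and MR14 was first for thbs4. For ctgf MR14 (82.7 CPM) was close to MR2 (79.4 CPM), and their counting intervals overlapped. MR14 held 43.7% and MR5 held 32.0% of the thbs4 CPM of repeatedly amputated limbs, whereas for ctgf MR14 held 18.5%. In Control6 the 10 thbs4 counts gave an interval of 0.282 to 1.08 CPM, so the low end of the control group is known only roughly. The lowest and highest libraries of thbs4 differed 5.73-fold among repeatedly amputated limbs and 5.14-fold among control limbs. For ctgf the same spans were 3.51-fold among repeatedly amputated limbs and 2.03-fold among control limbs.

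Compared per length, ctgf was the more abundant of the pair in every library. FPKM (fragments per kilobase and per 1000000 mapped fragments, TMM-scaled by the authors) of ctgf were 35.9, 90.8, 27.2 and 35.8 in MR2, MR5, MR6 and MR14, against 14.3, 13.0, 10.9 and 6.47 in Control1, Control3, Control4 and Control6. In the same order, FPKM of thbs4 were 2.10, 3.63, 0.910 and 5.25 in repeatedly amputated limbs, against 0.815, 0.383, 1.06 and 0.210 in control limbs. The mean FPKM of ctgf was higher than that of 95.4% of transcripts tested in repeatedly amputated limbs and 83.4% in control limbs. For thbs4 these shares were 53.1% in repeatedly amputated limbs and 2.40% in control limbs, so among tested transcripts thbs4 was close to the bottom in control limbs and near the middle in repeatedly amputated limbs. Transcripts were tested by their counts, so a long contig can be among them at a lower FPKM than a short one. The shares leave out the transcripts that were not tested, so they do not place thbs4 among all transcripts of the limb.

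The FPKM ratio of ctgf to thbs4 was 17.1 in MR2, 25.0 in MR5, 29.9 in MR6 and 6.82 in MR14, against 17.5 in Control1, 33.9 in Control3, 10.3 in Control4 and 30.8 in Control6. The groups overlapped widely in this ratio. The ratio of the mean levels was 16.0 in repeatedly amputated limbs and 18.1 in control limbs. MR14 had the lowest ratio of all 8 libraries, with the highest thbs4 level and a ctgf level close to that of MR2.

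Both transcripts varied between limbs of the same group by more than the trend for their abundance. The biological coefficient of variation estimated by edgeR was 44.2% for ctgf, against 34.9% on the trend for its abundance, and 62.3% for thbs4, against a trend of 44.5%. Their dispersions exceeded those of 82.7% (ctgf) and 90.3% (thbs4) of transcripts tested.

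Whether ctgf and thbs4 follow each other across limbs was then examined on log2 CPM (prior count 2). Over all 8 libraries Pearson's r was 0.859 and Spearman's rho 0.833, and r was 0.758 without MR5 and Control6, the libraries farthest from the ctgf median. Both transcripts had been chosen for a higher level in repeatedly amputated limbs, so this pooled value contains the difference that chose them. Each group's mean was therefore subtracted, and the relation was measured on what remained.

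With group means removed, ctgf deviated by -0.30 in MR2, 1.18 in MR5, -0.63 in MR6 and -0.25 in MR14, and by 0.31 in Control1, 0.29 in Control3, 0.10 in Control4 and -0.70 in Control6. The deviations of thbs4 in the same order were -0.30, 0.63, -1.40 and 1.07 in repeatedly amputated limbs and 0.50, -0.40, 1.03 and -1.13 in control limbs. In 6 of 8 libraries the 2 transcripts lay on the same side of their group means, with MR14 and Control3 as the exceptions. MR6 and Control6 were the lowest library of their group for both transcripts.

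The correlation of these deviations was positive but did not pass the test. Pearson's r was 0.58 (p = 0.186) and Spearman's rho 0.52 (p = 0.238) in a two-sided exact permutation test over all arrangements that keep each library in its group. Without MR5 and Control6, r was 0.50 over 6 libraries. Within repeatedly amputated limbs alone r was 0.55, and within control limbs alone it was 0.68, each over only 4 libraries. Leaving out 1 library at a time gave r between 0.43 (without MR6) and 0.78 (without MR14), with exact permutation p between 0.0625 and 0.514. This was the only relation tested, so no adjustment over several relations applies.

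Some transcripts followed each member more closely than the pair followed each other. Of the 32756 other transcripts tested, 7.54% had a higher r with ctgf than thbs4 had once group means were removed, and 8.50% had a higher r with thbs4 than ctgf had. These shares describe 8 libraries, and transcripts are not independent of one another.

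**Figure D2:**
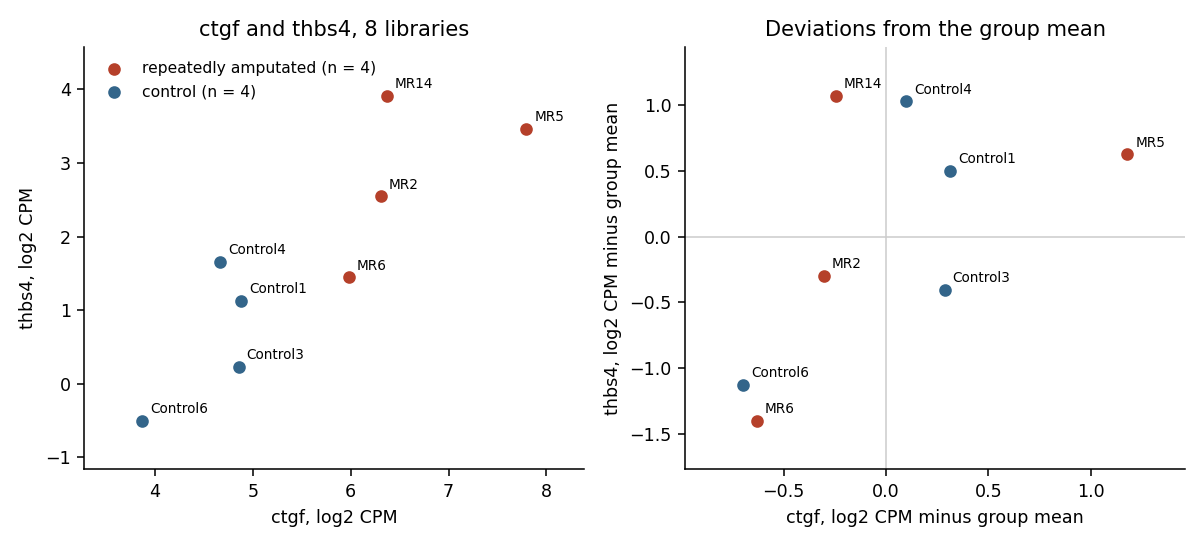
Thbs4 against ctgf in the 8 libraries, as log2 CPM (left) and as log2 CPM minus the mean of each group (right). Points are single libraries. Pearson's r is 0.859 in the left panel and 0.58 in the right one, with MR6 and Control6 low for both transcripts and MR14 high for thbs4 only.

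The transcripts most like each member were taken from the 258 tested entries of the study's list that carry a protein name, ranked by r with the member over all 8 libraries. The list was made from these libraries, so its entries differ between the groups by selection, and the r with group means removed is given beside the pooled one as a description. Transcripts without a protein name were not ranked. Of all transcripts tested, 17 had a higher pooled r with ctgf than its 5th entry, and 11 had a higher one with thbs4 than its 5th.

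The 5 entries most like ctgf were led by cartilage collagens. They were col9a3 (CO9A3, a chain of collagen IX of cartilage) with r of 0.98 pooled and 0.91 with group means removed, col2a1 (CO2A1, collagen II, the main cartilage collagen) with 0.97 and 0.89, and vgll3 (VGLL3, a cofactor of TEAD factors) with 0.97 and 0.88. Next came nexn (NEXN, an actin-binding protein of the muscle Z-disc) with 0.96 and 0.82, and il6st (IL6RB, the shared signalling receptor of the interleukin 6 family) with 0.96 and 0.83. Thbs4 ranked 95th of these entries by likeness to ctgf.

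Vgll3 ordered the 8 libraries exactly as ctgf did (Spearman's rho of 1.00). Its counts were low, at 40, 112, 14 and 50 in MR2, MR5, MR6 and MR14, against 11, 10, 7 and 4 in Control1, Control3, Control4 and Control6. The order was not fully resolved at this depth. For ctgf itself the counting intervals of MR2 (75.2 to 83.8 CPM) and MR14 (78.2 to 87.3 CPM) overlapped, as did those of Control1 and Control3. Col2a1 reached 10.7, 70.5, 6.03 and 8.90 CPM in repeatedly amputated limbs in the same order, against 1.69, 1.05, 1.26 and 1.06 CPM in control limbs. MR5 was again the high library, and the groups did not overlap. Col9a3 had 26, 398, 19 and 40 counts in repeatedly amputated limbs, against 2, 1, 0 and 0 in control limbs, where it was at the limit of detection. The il6st contig TR25217 c0_g1_i2 had 29, 178, 26 and 19 counts in repeatedly amputated limbs, against 0 in every control limb. Counts of any other il6st contig were not added, so this does not show that the gene was silent in control limbs. For these last 2 entries the likeness to ctgf within control limbs carries no information at this depth.

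The 5 entries most like thbs4 were different ones and included several muscle proteins. Muscle proteins were also common in the ranked pool, where 47 of the 258 entries belong to the sarcomere list described below. That list does not hold any of the 5 entries, and it leaves out other muscle proteins of the pool, such as MYBPH. The 47 are therefore not a base rate for the 5. Whether the 5 hold more muscle proteins than the pool was not tested. The 5 entries are given here in order. First were mybph (MYBPH, a myosin-binding protein of the thick filament) with r of 0.99 pooled and 0.97 with group means removed, smtnl1 (SMTL1, smoothelin-like 1, known from smooth and skeletal muscle) with 0.98 and 0.96, and macrod1 (MACD1, an enzyme that removes ADP-ribose from proteins) with 0.97 and 0.93. Next came pdk2 (PDK2, a kinase that restrains pyruvate oxidation) with 0.97 and 0.93, and bves (POPD1, a cAMP-binding membrane protein of striated muscle) with 0.97 and 0.91. Ctgf ranked 129th by likeness to thbs4.

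Mybph ordered all 8 libraries as thbs4 did (rho of 1.00), and so did macrod1, although the thbs4 order of MR6 and Control4 was not resolved at this depth. Mybph stood at 7.16, 34.7, 1.48 and 38.8 CPM in MR2, MR5, MR6 and MR14, against 1.32, 0.578, 3.09 and 0.294 CPM in Control1, Control3, Control4 and Control6. It shared the overlap seen for thbs4, with MR6 below Control4. Pdk2, the most abundant of these 5, was at 31.4, 73.6, 28.0 and 67.5 CPM in repeatedly amputated limbs, against 17.0, 8.93, 18.2 and 8.42 CPM in control limbs, with no overlap.

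**Figure D3:**
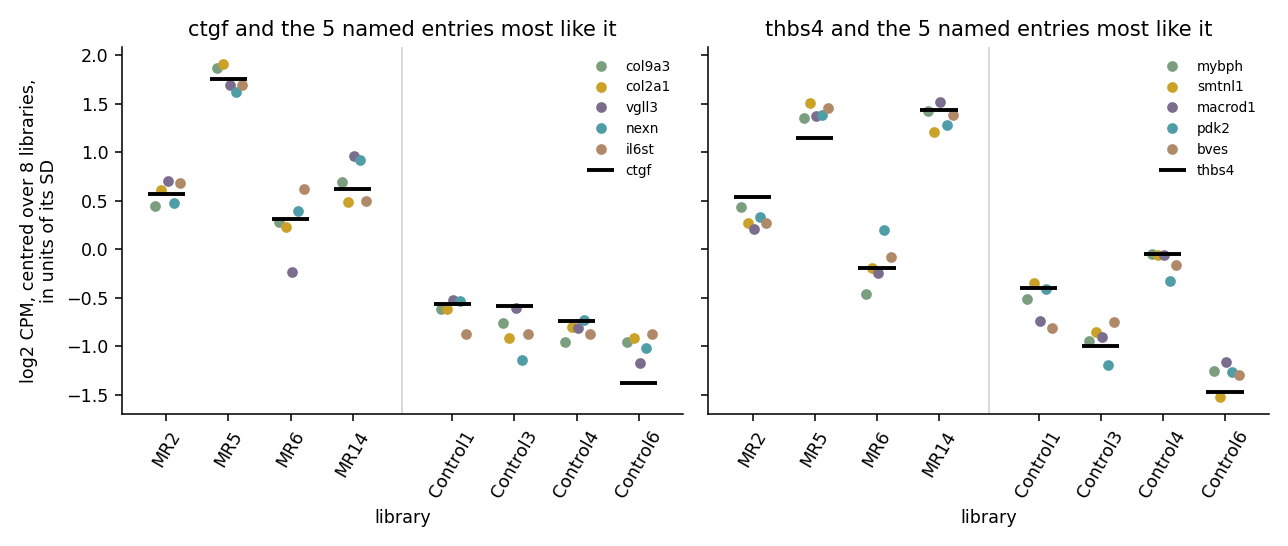
Ctgf (left) and thbs4 (right) in each library as black bars, with the 5 named entries most like each as coloured points. The vertical axis is log2 CPM centred over the 8 libraries and divided by its SD. Ctgf and its likest entries are highest in MR5, whereas thbs4 and its likest entries are high in both MR5 and MR14 and, among control limbs, highest in Control4.

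The members were next set beside lists of transcripts for the tissues of a limb stump, drawn by protein name from the same list of the study. These lists were selected on these libraries for a difference between the groups. Their direction, their p values and calls, and their counts without overlap are therefore shaped by that selection and are not independent evidence. Among all transcripts tested, 3.29% had every repeatedly amputated limb above every control limb, and 3.08% had every one below. At a false discovery rate (FDR) under 0.05 the quasi-likelihood test of edgeR called 0 transcripts of any list, beside 0.0122% of all transcripts tested (4 of 32757) in either direction and 0.00611% upward. Without adjustment, 11.1% of all transcripts tested had a p under 0.05, edgeR's exact test called 1.18% at an FDR under 0.05 and DESeq2's Wald test called 2.99% of those it gave an adjusted p. The median log2 fold change of all transcripts tested was -0.0066.

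The sarcomere list (myosins, troponins, tropomyosins, titin, nebulin and proteins of calcium release) had 105 transcripts, 47 of them tested. All 47 were fitted higher in repeatedly amputated limbs, with a median log2 fold change of 4.22 (range 2.09 to 5.41). The quasi-likelihood test had all 47 at an unadjusted p under 0.05, the exact test called 11 and DESeq2 called 28. The summed sarcomere level was 2175 CPM in MR2, 12337 in MR5, 531 in MR6 and 8732 in MR14, against 73.6 in Control1, 236 in Control3, 1092 in Control4 and 83.3 in Control6. MR6 lay below Control4, the same crossing as for thbs4, and only 4 of the 47 transcripts had no overlap between the groups. Of the 105 transcripts, 10 were at 0 in every control library.

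Thbs4 moved with the sarcomere list within the groups, and ctgf less closely. With group means removed, the summed sarcomere level had r of 0.81 with thbs4 and 0.58 with ctgf over the 8 libraries, and the difference between these values was not tested. Of the 47 tested sarcomere transcripts, 46 had a higher r with thbs4 than with ctgf, where 49.9% of all other transcripts tested did. This count was 31 without MR14 and 35 without Control4, and 45 to 47 without any other library. Some of the 47 had few counts in control limbs outside Control4, such as LMOD3 with 0, 16, 53 and 2 in Control1, Control3, Control4 and Control6. Others had more, such as the TPM1 contig TR25509 c0_g1_i1 with 813, 1210, 4250 and 620. Where control counts were few, the r says little about control limbs, so the count of 46 is only a description. The 47 transcripts come from the same libraries and belong to the same tissue, and several share an assembled component, such as the myosin contigs of TR5549. They are therefore not independent of one another, and 47 is not a number of genes. The part of muscle content in the thbs4 difference was not tested.

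The cartilage list (collagens II and IX, aggrecan, chondromodulin and CLEC3A) had 11 transcripts, of which 3 were tested. All 3 were fitted higher in repeatedly amputated limbs, with a median log2 fold change of 6.18, and all 3 had no overlap between the groups. The quasi-likelihood test had all 3 at an unadjusted p under 0.05, and the exact test called all 3. DESeq2 called 1 (col2a1) and gave no adjusted p for col9a1 and col9a3. The summed level was 20.8 CPM in MR2, 186 in MR5, 11.7 in MR6 and 19.1 in MR14, against 2.27 in Control1, 1.37 in Control3, 1.89 in Control4 and 1.35 in Control6. MR5 stood apart in cartilage transcripts as it did in ctgf, and 3 of the 11 transcripts were at 0 in every control library.

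With group means removed, the summed cartilage level had r of 0.90 with ctgf and 0.49 with thbs4. Without MR5 these values were 0.59 with ctgf and 0.78 with thbs4, so the closer likeness of ctgf to cartilage rested on this library. The 3 tested cartilage transcripts each had a higher r with ctgf than with thbs4, and without MR5 only 1 of the 3 did. In Control1, Control3, Control4 and Control6, col9a1 had 1, 2, 5 and 3 counts and col9a3 had 2, 1, 0 and 0. For col9a1 and col9a3 the r therefore says little about control limbs. The part of cartilage content in the ctgf level of MR5 was not tested. In the other repeatedly amputated limbs ctgf was at 63.3 to 82.7 CPM, against 14.5 to 29.3 CPM in control limbs. The groups did not overlap with MR5 included, so leaving it out could not create an overlap, and nothing is read from this.

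**Figure D4:**
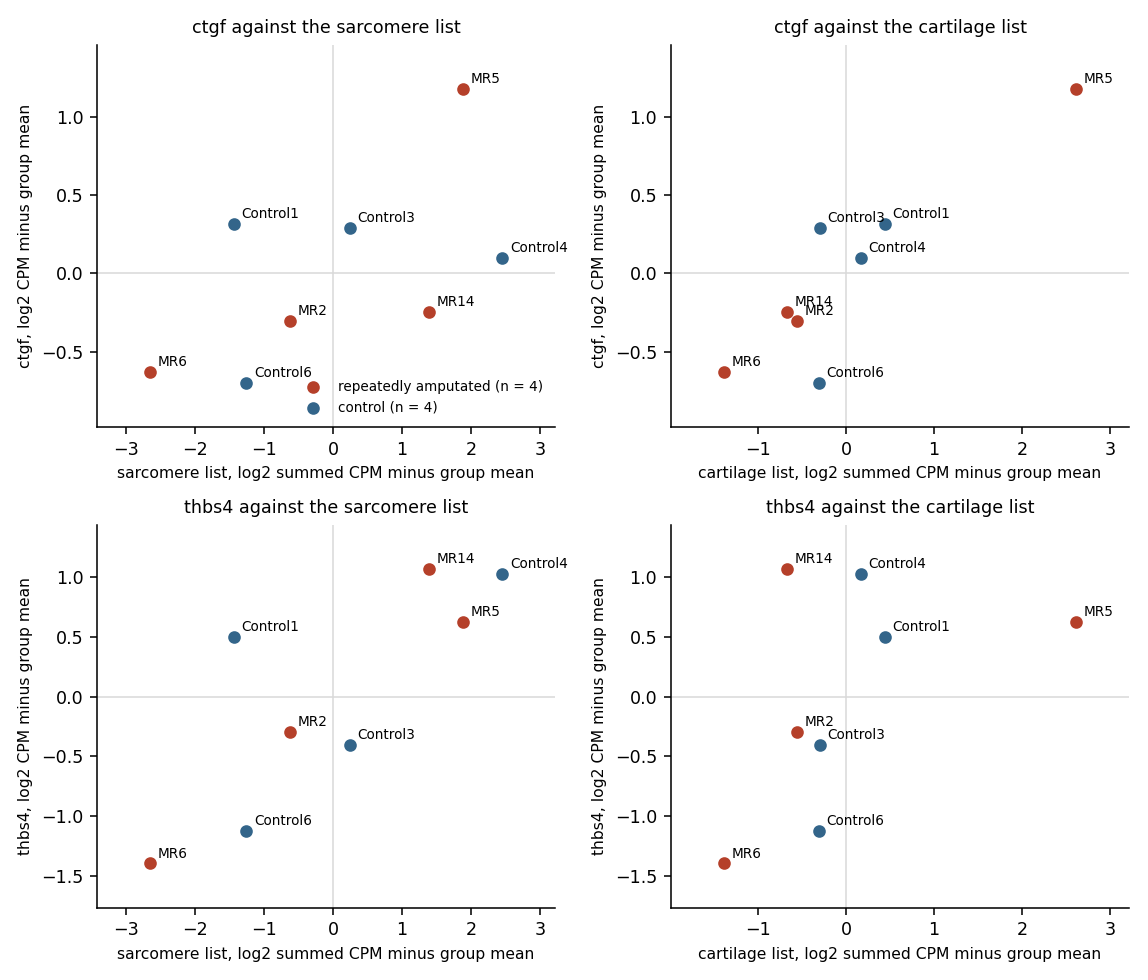
Ctgf (top row) and thbs4 (bottom row), as log2 CPM minus the group mean, against the summed sarcomere list (left) and cartilage list (right) on the same scale. Points are single libraries. Thbs4 follows the sarcomere list (r of 0.81). The r of ctgf with the cartilage list is 0.90 with MR5 and 0.59 without it.

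The fibroblast and tendon matrix list had 14 transcripts, 10 of them tested, and is of interest because both members are known from such cells in mammals. All 10 were fitted higher in repeatedly amputated limbs, with a median log2 fold change of 1.89 (range 1.45 to 3.46), close to the size seen for the members. The 3.46 was that of CHRD1, a cysteine and histidine-rich domain protein that the search by name took in. CHRD1 is not a matrix protein, but it is counted in every value of this list. Whether the other entries are specific to fibroblasts or tendon was not examined. Its MR6 level (0.473 CPM) lay below Control4 (0.857 CPM). The highest log2 fold change of the others was 3.40, for a contig of MXRA5. The quasi-likelihood test had 10 at an unadjusted p under 0.05, the exact test called 9, and 9 had no overlap between the groups. DESeq2 called 9 and gave no adjusted p for lama2 (LAMA2). The list includes fbn1 (FBN1, fibrillin 1 of elastic microfibrils) at 64.4 ± 21.7 CPM in repeatedly amputated limbs and 23.5 ± 6.30 CPM in control limbs (SD, n = 4 each), and the mxra5 contig TR13084 c0_g1_i1 (MXRA5, a matrix-remodelling protein) at 19.7 ± 8.87 CPM in repeatedly amputated limbs and 1.86 ± 0.936 CPM in control limbs (SD, n = 4 each).

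The summed fibroblast and tendon level was 78.4 CPM in MR2, 187 in MR5, 189 in MR6 and 144 in MR14, against 50.1 in Control1, 41.0 in Control3, 47.5 in Control4 and 30.9 in Control6. The groups did not overlap, and MR6, the lowest repeatedly amputated limb for both members, was the highest here. With group means removed the list had r of 0.46 with ctgf and 0.26 with thbs4, and without MR6 these values were 0.79 with ctgf and 0.76 with thbs4. Of the 10 tested transcripts, 4 had a higher r with thbs4 than with ctgf, CHRD1 included (0.76 against 0.64). Among them the laminin chain lamb1 (LAMB1) had r of 0.87 with thbs4 and 0.53 with ctgf, and the protease adamts8 (ATS8) had 0.58 with thbs4 and 0.75 with ctgf on the other side.

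A list of 5 genes linked to CTGF in mammals, as fellow targets or regulators in the YAP and TEAD or the SRF and myocardin pathways, had 3 tested transcripts, all fitted higher in repeatedly amputated limbs, with a median log2 fold change of 2.92. The quasi-likelihood test had 3 at an unadjusted p under 0.05, the exact test called 2 and DESeq2 called 2, and 2 had no overlap between the groups. The genes did not share one pattern. Vgll3 lay near ctgf, as given above. Ankrd1 (ANKR1), a YAP target that is also a protein of the striated muscle sarcomere, had 2936, 11662, 355 and 7166 counts in MR2, MR5, MR6 and MR14, against 82 in Control1, 211 in Control3, 1341 in Control4 and 78 in Control6. It had r of 0.82 with thbs4 and 0.57 with ctgf once group means were removed, and its groups overlapped at MR6 and Control4.

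Areg (AREG, amphiregulin, a ligand of the EGF receptor) had a negative r with thbs4 within the groups. It had 393, 699, 392 and 127 counts in MR2, MR5, MR6 and MR14, against 99 in Control1, 138 in Control3, 59 in Control4 and 99 in Control6. Its lowest repeatedly amputated limb was MR14 and its lowest control limb was Control4, the highest limbs of their groups for thbs4. With group means removed, areg had r of 0.46 with ctgf and -0.42 with thbs4 over the 8 libraries. Among MR2, MR5 and MR6 both areg and thbs4 were highest in MR5, so in repeatedly amputated limbs the opposite course came from MR14. The r without MR14 was not calculated. The other 2 genes of this list, mycd (MYCD, myocardin) and abra (ABRA, an activator of SRF in striated muscle), did not pass the expression filter. Mycd had 3, 36, 4 and 10 counts in repeatedly amputated limbs, highest in MR5, against 0, 0, 2 and 1 in control limbs, and abra had 35, 111, 1 and 117 counts in repeatedly amputated limbs, against 0, 7, 7 and 0 in control limbs.

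The chosen epidermis transcripts had little relation to ctgf and ran against thbs4 within the groups. The study's list also names K2C6A, another type II keratin that was lower in repeatedly amputated limbs, and this entry was not taken in. The list therefore gives no direction for epidermis as a whole, and its correlations with K2C6A added were not calculated. Of 5 in the list 4 were tested, 3 fitted higher (the laminin chains lama3 and lamb3 of the epidermal basement membrane and the transglutaminase tgm1) and 1 fitted lower (a type II keratin, K2C5) in repeatedly amputated limbs. The 5th, the transglutaminase tgm3 (TGM3), did not pass the expression filter, which needs enough counts in at least 4 libraries. It had 0 counts in all 4 repeatedly amputated limbs, against 229 in Control1, 286 in Control3, 0 in Control4 and 261 in Control6. The quasi-likelihood test had 4 at an unadjusted p under 0.05, the exact test called 1 and DESeq2 called 4. The summed level of the list ran from 373 to 1593 CPM in repeatedly amputated limbs and from 233 to 3241 CPM in control limbs. With group means removed, that level had r of 0.04 with ctgf and -0.65 with thbs4. Single transcripts made up most of the sum in some libraries, K2C5 in Control3 (3045 CPM) and lamb3 in MR6 (928 CPM). Taken singly, the 4 tested transcripts had r of 0.0052 (K2C5) to 0.15 (lama3) with ctgf. With thbs4 they had r of -0.58 (K2C5) to -0.17 (tgm1). The 8 immunoglobulin and immunoglobulin receptor transcripts were all tested and all fitted lower in repeatedly amputated limbs, with a median log2 fold change of -2.64. The quasi-likelihood test had 8 at an unadjusted p under 0.05 and the exact test called 6. DESeq2 called 7 and gave no adjusted p for HV02. Their summed level of 159 to 291 CPM in repeatedly amputated limbs did not overlap the 539 to 923 CPM of control limbs. That sum had r of -0.47 with ctgf and 0.11 with thbs4, and without MR5 its r with ctgf was -0.065. IGHM made up most of the sum, with 146 CPM in MR5 and 835 CPM in Control1. Taken singly, the 8 transcripts had r of -0.90 (KV403) to 0.43 (HV02) with ctgf. With thbs4 they had r of -0.71 (PIGR) to 0.45 (HV02). HV02 was at the limit of detection in repeatedly amputated limbs.

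**Figure D5:**
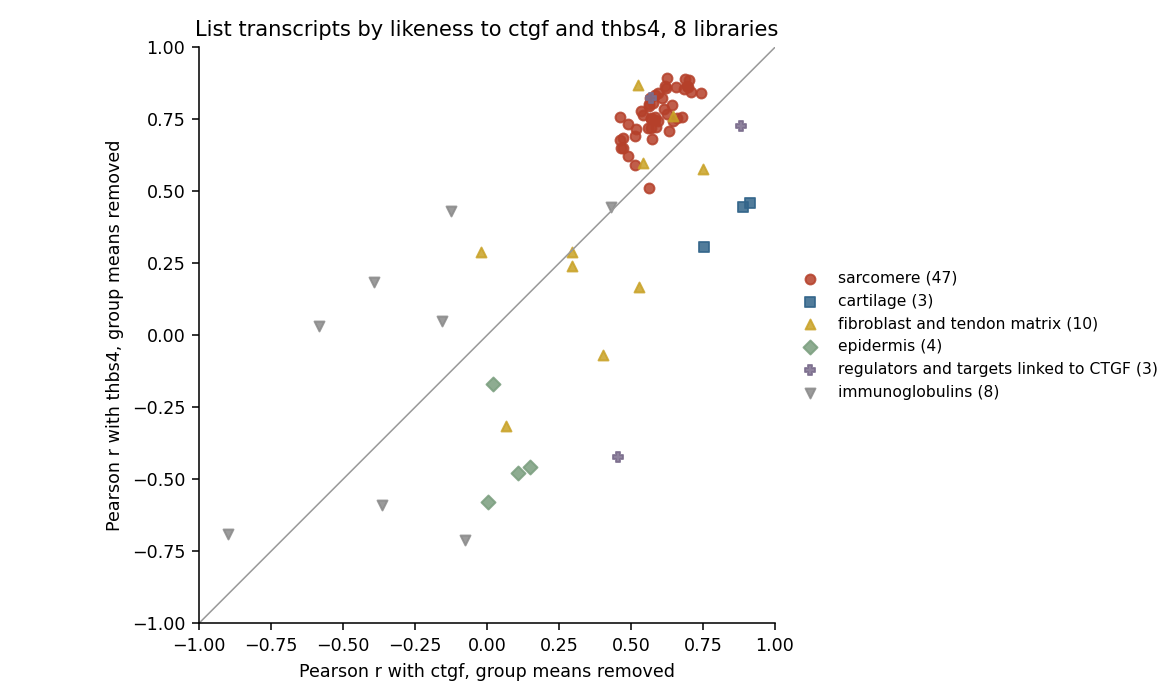
Pearson's r of each tested list transcript with ctgf (horizontal) and with thbs4 (vertical) over the 8 libraries, with group means removed. Each point is a transcript, marked by its list, with the number of tested transcripts in brackets, and the line marks equal r. Of the 47 sarcomere transcripts, 46 lie above the line, and the 3 cartilage transcripts lie below it. Col9a1, col9a3 and some sarcomere transcripts had few counts in control limbs.

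Other members of the CCN and thrombospondin families were not analysed here. The RefSeq table of axolotl genes (assembly UKY_AmexF1_1) lists all 6 CCN genes and all 5 thrombospondin genes that were looked up, but it contains 0 of the contig names used in the deposited tables. Fragments of a paralog that RSEM assigned to the ctgf or thbs4 contig, and further contigs of the same genes elsewhere in the assembly, would not be recognised by name.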

How the data were processed

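The authors assembled the reads with Trinity, annotated contigs with Trinotate and quantified them with RSEM (versions not given in the sources used here), after base calling with CASAVA 1.8.2 per the labels. They applied an FPKM threshold of 2 to the initial assembly and deposited expected counts, without normalization, and FPKM scaled by TMM. Here expected counts were rounded, filtered with filterByExpr (32757 of 91843 transcripts), scaled by TMM and fitted with edgeR 4.0.16 (quasi-likelihood F-test, robust, Benjamini-Hochberg adjustment, FDR threshold of 0.05) in R 4.3.3. DESeq2 1.42.0, edgeR's exact test, other scalings and filters, log2(FPKM + 1), log2(FPKM + 0.1) and each library left out were alternatives. Where DESeq2 gave no adjusted p, none was filled in. The count tests were first tested on simulated data.

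Protein names came from the study's list of 912 differing transcripts by matching its mean FPKM per group to 5 decimals, which identified 905 contigs, 490 of them with a protein name. Named transcripts were the members, list entries whose function bears on them, and the 5 named entries with the highest r with each member. The members and lists were chosen with earlier results of these data known. A group with no library above 3 counts was taken as at the limit of detection.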

Additional observations from a re-analysis of the deposited data

Results flagged for a closer look

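In 4 of the 16 groups of 4 limbs checked (both members and 6 lists, each in both groups), 1 library stood apart by more than Dixon's 95% critical value for the gap to its nearest neighbour over the range. For independent groups of normally distributed values, chance gives about 1 such case in 20 groups. The gaps were taken on CPM without a log scale, and the members and lists share the same libraries. That rate is therefore only a rough guide here, and whether the flags exceed chance was not tested. For ctgf in repeatedly amputated limbs it was MR5, at 222 CPM, with a gap of 0.88 of the range. For the summed cartilage list in repeatedly amputated limbs it was also MR5, at 186 CPM, with a gap of 0.95. For the summed sarcomere list in control limbs it was Control4, at 1092 CPM, with a gap of 0.84, and for the summed list of genes linked to CTGF in control limbs it was Control4 as well, at 80.9 CPM, with a gap of 0.87. Of that 80.9 CPM, 76.6 CPM came from ankrd1, which is also a sarcomere protein. Areg was at its lowest control level in Control4 (3.37 CPM), so this flag describes ankrd1 rather than the list. Thbs4 itself had no library that stood apart in this way in either group.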

How the results depend on the processing

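The log2 fold change of ctgf was 1.88 to 2.21 over the other scalings, filters, tools and FPKM scales, and 1.62 to 2.40 with 1 library left out. That of thbs4 was 2.03 to 2.36 over the same alternatives, apart from 1.19 on the log2(FPKM + 1) scale, and 1.93 to 2.79 with 1 library left out. The r of ctgf with thbs4 after removal of group means was 0.52 to 0.59 over other scalings and values, and 0.43 to 0.78 with 1 library left out, and its exact permutation p was 0.0625 or above in all of these. The count of transcripts at an FDR under 0.05 was 4 in the quasi-likelihood test, 21 without a filter, 9 with at least 10 summed counts, 387 in the exact test, 768 with DESeq2, and 2 (without MR5) to 14 (without Control1) with 1 library left out. The median log2 fold change of the sarcomere list was 3.46 without MR5, 5.89 without Control4 and 2.89 on log2(FPKM + 1). That of the cartilage list was 4.17 without MR5, 1.61 on log2(FPKM + 1) and 3.67 on log2(FPKM + 0.1), and that of the list linked to CTGF was 1.804 on log2(FPKM + 1). The cause of these shifts was not tested. Alternatives for the lists and for the entries most like each member, and the list correlations with a library left out, were chosen after the data were seen. No fold change or list median changed direction, nor did the r of ctgf with thbs4. Among the list correlations, those of epidermis with ctgf (-0.18 without MR5 to 0.29 without MR6) and of immunoglobulins with thbs4 (-0.09 without MR14 to 0.66 without MR6) changed sign with 1 library left out, and without MR5 the cartilage list was closer to thbs4 than to ctgf. No paired analysis was possible because the groups compared share fewer than 2 numbers and these carry no pairing. With 10 to 233 counts per library, depth limits thbs4 more than ctgf.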
